A study of Mus musculus with 6 samples.

Results

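The somatic cells of the gonad are built by a small set of transcription regulators that the precursors of testis and ovary share. The 8 genes described here are *Wt1*, *Gata4*, *Gata6*, *Zfpm2*, *Lhx9*, *Lhx2*, *Emx2* and *Cbx2*, taken by symbol out of 26251 genes listed in any of 6 single cell mRNA libraries, and all 8 were listed in every library. They were taken by name and not by a threshold on measured values, but with earlier results of these data known. The libraries came from mouse gonads at E15.5, when testis and ovary have taken on their own structure, in 3 groups with 2 biologically independent libraries each. Control XY and control XX gonads were wild type at both loci under study (Amh+/+; Inhbb+/+). The dKO XY gonads lacked both genes (Amh-/-; Inhbb-/-), and all embryos came from crosses of heterozygous mice in a C57BL/6 background. *Amh* encodes anti-Müllerian hormone and *Inhbb* the beta B subunit that forms activin B, and both alleles were absent from every cell of the embryo, not from one cell type alone. The question for these 8 genes was in which cell types they were transcribed, how testis and ovary differed, and where the dKO XY gonad stood.

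These regulators act before and during sex determination. WT1, GATA4, LHX9 and EMX2 are needed for the genital ridge to form or persist, and in the XY gonad WT1, GATA4 with its cofactor FOG2 (the product of *Zfpm2*) and CBX2 take part in switching on *Sry* and the Sertoli cell program. Later, the same proteins remain in differentiated cells: WT1 maintains Sertoli cells, GATA4 and GATA6 activate steroidogenic genes, and EMX2 and LHX9 mark the coelomic epithelium and cells close to the precursor state. LHX2 is a close relative of LHX9, and CBX2 is a chromobox subunit of Polycomb repressive complex 1 (PRC1), which compacts chromatin.

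Of the 68064 barcodes listed, 39350 passed the filter as cells, between 4781 and 8569 in a library, with 118475468 to 221675316 UMIs (unique molecular identifiers, each counting 1 captured mRNA molecule). Barcodes with 25% or more mitochondrial UMIs made up 24.4% and 28.3% of the dKO XY libraries, against 2.22% to 9.35% in the control libraries. Any 2 libraries shared between 4 and 25 cell barcodes, and no shared barcode carried the same profile in both. The deleted genes were read first in the supporting cells, the lineage of Sertoli and granulosa cells. *Amh* was at 2034 and 1908 UMIs per 1000000 UMIs of the summed cells (CPM) in control XY, 18.0 and 15.8 CPM in dKO XY and 1.36 and 1.45 CPM in control XX. *Inhbb* was at 161 and 186 CPM, 41.7 and 50.9 CPM, and 37.4 and 25.2 CPM in the same order. Both genes were far lower in dKO XY than in control XY in each library, although UMIs of both remained. For *Inhbb*, both dKO XY values were above both control XX values, so its level alone does not mark the deletion. Throughout, pairs of values are replicates 1 and 2 of a group, and CPM values are levels of 1 gene compared between cells. Because the protocol counts transcript 3′ ends, levels were not compared between genes.

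Cell types were read from clusters computed without the 8 genes among the variable genes and named by fixed marker lists. The types were supporting, interstitial, Leydig, epithelial, endothelial, pericyte, germ, immune and erythroid cells. Supporting cells numbered 261 and 533 in the control XY libraries, 1294 and 958 in those of dKO XY and 2984 and 1177 in control XX. Interstitial cells numbered 5223 and 6244, 4678 and 2847, and 1550 and 2955. Differences between groups were tested on summed UMIs with edgeR's quasi-likelihood test, and genes with an adjusted p under 0.05 were called (by the Benjamini-Hochberg method over all genes tested). Permuting 4 library labels exactly leaves a smallest two-sided p of 0.333, so no such test is reported. UMIs in the immune cells are given beside low values as a reference for RNA of other cells. These values do not tell released RNA apart from barcodes that hold several cells.

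One promoter is shown because *Lhx9* was, with *Zfpm2*, 1 of 2 members called in opposite directions in the supporting and interstitial cells of control XX gonads, and because its window carries letters that GATA factors and homeodomain proteins of this gene set are known to bind. The window holds the 250 bases before the RefSeq start of *Lhx9* on GRCm38.p6, chr1:138842445-138842694, minus strand, printed 5′ to 3′. It lies inside an intron of the longer *Lhx9* transcripts and just upstream of the first exon of the shorter ones. Capitals mark TAAT on either strand and the GATA motif, which is GATA with A or T before it and A or G after it, on either strand, and in the second run a TAAT and a GATA match overlap.

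Lhx9: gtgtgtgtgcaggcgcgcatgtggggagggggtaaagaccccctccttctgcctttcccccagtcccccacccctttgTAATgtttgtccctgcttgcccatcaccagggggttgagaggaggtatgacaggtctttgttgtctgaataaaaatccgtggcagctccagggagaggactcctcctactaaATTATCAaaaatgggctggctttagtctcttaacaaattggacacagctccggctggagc

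The window holds 2 TAAT matches and 1 GATA match. Among 32851 RefSeq windows of the same length, 54.9% held a TAAT and 26.5% a GATA match, so both are common and the matches describe letters, not bound sites. The *Emx2* window held 1 TAAT and no GATA match, and both *Lhx2* windows held neither. *Wt1*, *Gata4*, *Zfpm2* and *Cbx2* were not in the table used, and no window is given for *Gata6*. In GENCODE M21 on GRCm38, *Lhx9* spans chromosome 1 from 138825186 to 138848577 on the minus strand, *Wt1* chromosome 2 from 105126529 to 105173616, *Lhx2* chromosome 2 from 38339281 to 38369733, *Cbx2* chromosome 11 from 119022962 to 119031270, *Gata4* chromosome 14 from 63198922 to 63271692 on the minus strand, *Zfpm2* chromosome 15 from 40655035 to 41104592 and *Emx2* chromosome 19 from 59458372 to 59465357. These 7 genes are protein coding, and no coordinates are given for *Gata6*.

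**Figure D1:**
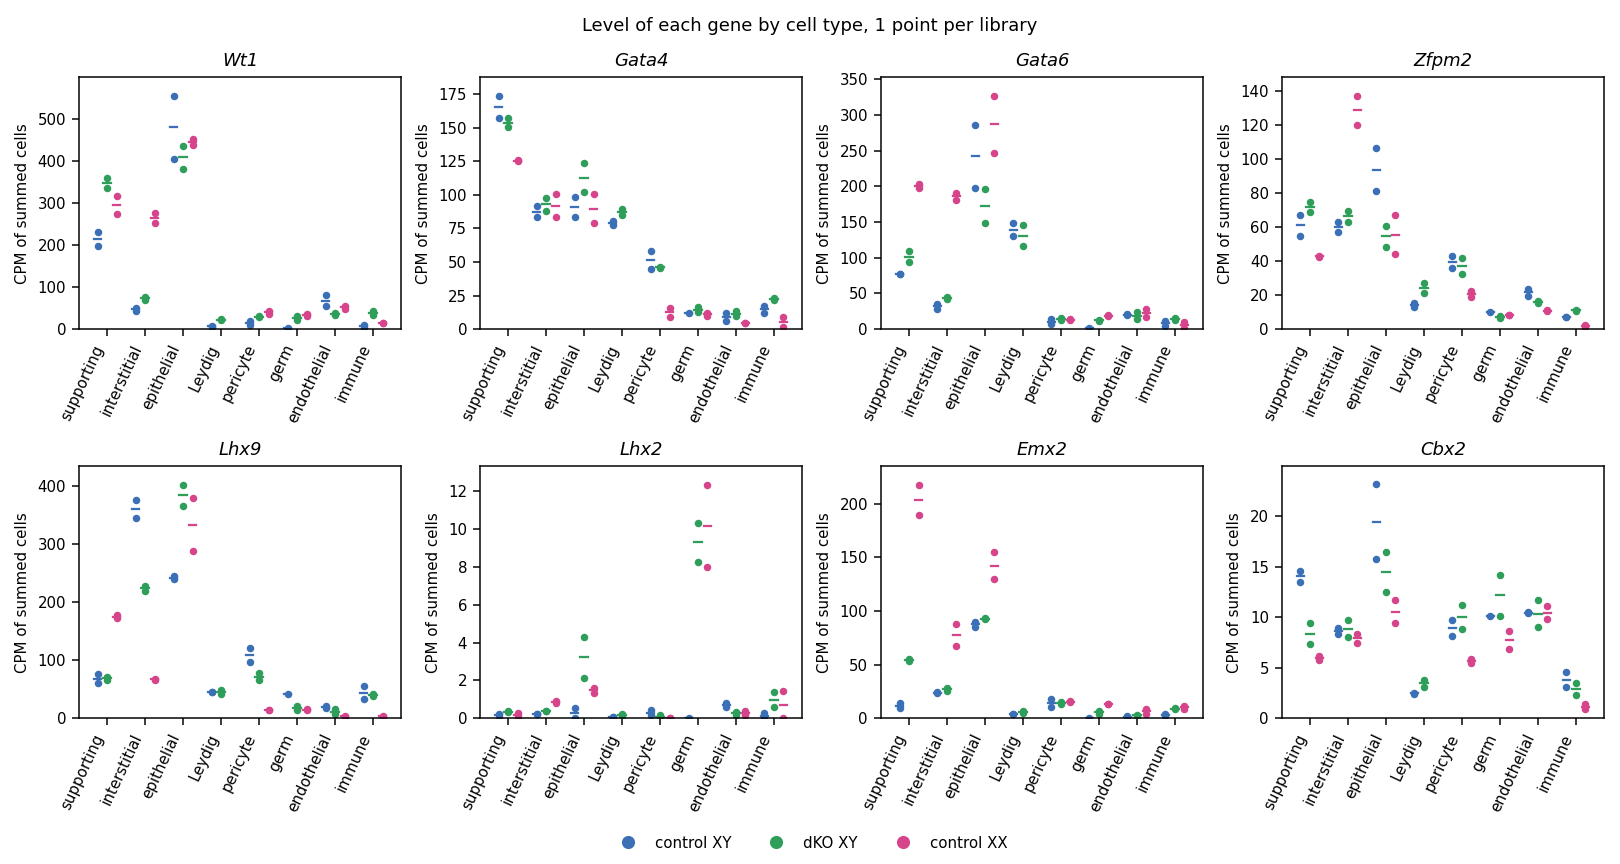
Level of each of the 8 genes (CPM of the summed cells, linear axis from 0, with its own scale for each gene) in 8 cell types, 1 point per library and a short line at the group mean, coloured by group. *Wt1* is highest in epithelial cells, at 382 to 554 CPM, and *Lhx2* reaches its highest levels in germ cells.

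Across cell types, *Wt1* was highest in the epithelial cells that cover the gonad. *Wt1*, a zinc finger factor of the coelomic epithelium and Sertoli cells, was at 382 to 554 CPM in epithelial cells over all 6 libraries and at 198 to 360.2 CPM in supporting cells. In the interstitium it was at 43.6 to 77.2 CPM in the XY libraries but at 275 and 253 CPM in control XX. Leydig cells held 4.86 to 23.1 CPM. *Wt1* in immune cells measured 3.94 and 9.44 CPM in control XY, 44.0 and 34.3 CPM in dKO XY and 14.5 and 14.0 CPM in control XX. The immune level was thus higher in both dKO XY libraries than in the other 4, and the low *Wt1* values of other cell types are read against it. Without the cells with the highest doublet scores, the mean immune level was 2.70 CPM in control XY (6.69 CPM with them) and 20.8 CPM in dKO XY (39.2 CPM), and the mean Leydig level of control XY was 3.36 CPM (6.57 CPM).

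*Gata4*, a zinc finger activator of *Sry*, *Amh* and steroidogenic genes, was at 126 to 174 CPM in supporting cells, 83.3 to 101 CPM in interstitial cells, 77.3 to 89.7 CPM in Leydig cells and 79.1 to 124 CPM in epithelial cells. Endothelial cells, at 4.51 to 13.8 CPM, germ cells, at 10.2 to 16.3 CPM, and immune cells, at 1.45 to 23.6 CPM, had lower values, and their ranges overlapped. Without the cells with the highest doublet scores, the mean *Gata4* level of dKO XY was 9.50 CPM in immune (22.6 CPM with them) and 4.72 CPM in endothelial cells (11.6 CPM). Pericytes held 44.6 to 58.5 CPM in the XY libraries and 15.8 and 9.40 CPM in control XX. The ranges of the interstitial, Leydig and epithelial cells overlapped, so no order can be given among these 3 types. *Gata6*, the second GATA factor of the somatic gonad, was at 149 to 326 CPM in epithelial and 116 to 148 CPM in Leydig cells, while interstitial cells of the 4 XY libraries held 28.5 to 45.7 CPM. Pericytes held 7.33 to 15.0 CPM and immune cells 1.45 to 15.48 CPM, ranges that overlapped. The mean immune level of *Gata6* moved without the highest doublet scores as well, from 14.2 to 3.87 CPM in dKO XY, from 8.29 to 4.52 CPM in control XY and from 5.99 to 12.7 CPM in control XX. *Zfpm2*, the cofactor that binds GATA proteins, was at 44.4 to 106 CPM in epithelial, 57.1 to 137 CPM in interstitial, 42.6 to 74.5 CPM in supporting and 13.1 to 27.1 CPM in Leydig cells. The first 3 ranges overlapped, and all 4 Leydig values lay below them.

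*Lhx9*, a LIM homeobox gene needed for the genital ridge, was at 239 to 402 CPM in epithelial cells and at 220.2 to 376 CPM in the interstitial cells of the XY libraries. Those ranges overlapped. Pericytes held 65.6 to 121 CPM in the XY and 15.0 and 14.5 CPM in the XX libraries, and Leydig cells 42.0 to 49.6 CPM. *Lhx9* in immune cells was at 33.2 to 54.8 CPM in the XY libraries but at 4.34 and 1.76 CPM in control XX. With all cells kept, the Leydig level was thus inside the immune range of the XY libraries. Without the cells with the highest doublet scores, the mean immune level of dKO XY was 13.9 CPM (40.2 CPM with them) and the mean Leydig level of control XY 24.4 CPM (45.0 CPM). These means are of different groups. The Leydig log2 difference of dKO XY from control XY was then 0.52, so they do not show an overlap in dKO XY. *Emx2*, a homeobox gene of the urogenital epithelium, was at 85.4 to 93.7 CPM in the epithelial cells of the XY libraries and at 155 and 129.6 CPM in control XX and at 1.06 to 8.95 CPM in endothelial cells. *Cbx2* was low and broadly spread, at 9.38 to 23.1 CPM in epithelial, 5.72 to 14.6 CPM in supporting, 7.49 to 9.72 CPM in interstitial, 6.81 to 14.2 CPM in germ and 8.99 to 11.7 CPM in endothelial cells. Leydig cells, at 2.44 to 3.79 CPM, and immune cells, at 0.878 to 4.53 CPM, were below all of these.

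*Lhx2* was the one member without a clear somatic home. Germ cells of dKO XY held 8.28 and 10.3 CPM, from 128 and 104 UMIs, and those of control XX held 12.3 and 7.97 CPM, from 119 and 62 UMIs. The germ cell ranges of dKO XY and control XX overlapped. Control XY replicate 1 had 15 germ cells and no *Lhx2* UMI, and replicate 2 had 7 germ cells, too few to sum, so no XY control level is available. Supporting cells held 0.0641 to 0.367 CPM, from 1 to 25 UMIs in a library, and interstitial cells 0.227 to 0.914 CPM. In epithelial cells *Lhx2* gave 0 and 1 UMIs in control XY, 15 and 32 UMIs in dKO XY and 14 and 7 UMIs in control XX. Almost all somatic values are at the edge of what was countable.

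In supporting cells, *Emx2* and *Wt1* rose and *Cbx2* fell in dKO XY relative to control XY. Of the 8 members, 2 were higher and 1 was lower, where 9.85% of all genes tested were called higher and 6.81% lower. The median log2 difference of the 8 was 0.32, beside 0.02 over all genes tested. The makeup of these sums differed as well. One cluster (cluster 5) held 95.0% and 96.2% of the control XY supporting cells but 60.5% and 51.4% of those of dKO XY, of which another (cluster 9) held 33.5% and 45.9%. The 8 granulosa markers summed to 64.5 and 30.1 CPM in control XY against 423 and 486 CPM in dKO XY, and the 5 supporting lineage markers to 1745 and 1776 against 2601 and 2952 CPM. These comparisons join cells of more than 1 class, which are separated further on. *Emx2* stood at 13.8 and 9.74 CPM in control XY, 55.4 and 53.3 CPM in dKO XY and 217 and 189 CPM in control XX. The 3 groups did not overlap, and dKO XY stood between the controls. The log2 difference of dKO XY from control XY was 2.25 ± 0.18 (SE, adjusted p = 5.43e-05), a 4.74-fold higher level, and dKO XY was still below control XX by a log2 difference of −1.84 ± 0.16 (adjusted p = 1.76e-05). Immune cells held 4.22 and 2.27, 9.18 and 8.32, and 8.68 and 11.4 CPM of *Emx2*, below the supporting cells of the same library in all 6 libraries.

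*Wt1* reached 198 and 229.9 CPM in supporting cells of the XY controls, 335 and 360.2 CPM in dKO XY and 317 and 273 CPM in control XX. Both dKO XY values were above all 4 control values, and both XX values were above both XY controls. The log2 difference of dKO XY from control XY was 0.71 ± 0.14 (adjusted p = 0.00725), lost without control XY replicate 1 (0.60, adjusted p = 0.0652). The immune *Wt1* values given above, 3.94 and 9.44 CPM in control XY against 44.0 and 34.3 CPM in dKO XY, were higher in dKO XY too, and their part in the difference was not tested. *Cbx2* stood at 14.6 and 13.5 CPM in control XY, 7.38 and 9.38 CPM in dKO XY and 6.19 and 5.72 CPM in control XX. Again the groups did not overlap and dKO XY lay between the controls. The log2 difference of dKO XY from control XY was −0.73 ± 0.18 (adjusted p = 0.0243), and the call was lost without control XY replicate 1 (−0.68, adjusted p = 0.0983), control XY replicate 2 (−0.80, adjusted p = 0.0918) or dKO XY replicate 1 (−0.55, adjusted p = 0.112).

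Neither GATA gene nor *Zfpm2* passed the test between XY supporting cells of the 2 genotypes. *Gata6* reached 77.7 and 77.2 CPM in the XY controls, 94.0 and 109 CPM in the dKO libraries and 203 and 197 CPM in the XX controls. Both dKO XY values were above both XY controls, but the log2 difference of 0.40 ± 0.13 missed the threshold (adjusted p = 0.0601), and DESeq2 called it (0.38, adjusted p = 0.0322). *Gata4* was at 157 and 174 CPM against 150.4 and 157 CPM (adjusted p = 0.641), and *Zfpm2* at 54.8 and 67.2 CPM against 68.6 and 74.5 CPM (adjusted p = 0.272). *Lhx9* was not called in the supporting cells as a whole, at 75.5 and 60.0 CPM in control XY against 71.3 and 66.2 CPM in dKO XY (log2 difference 0.03 ± 0.14, adjusted p = 0.910). With a cell filter of more than 1500 genes it was called higher in dKO XY, by 0.78 (adjusted p = 0.0263). *Tcf21*, an interstitial marker, stood in supporting cells at 122 and 103 CPM (XY controls), 50.1 and 33.3 CPM in dKO XY and 9.86 and 45.6 CPM in control XX. The part of interstitial RNA in the pooled *Lhx9* values was not tested.

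**Figure D2:**
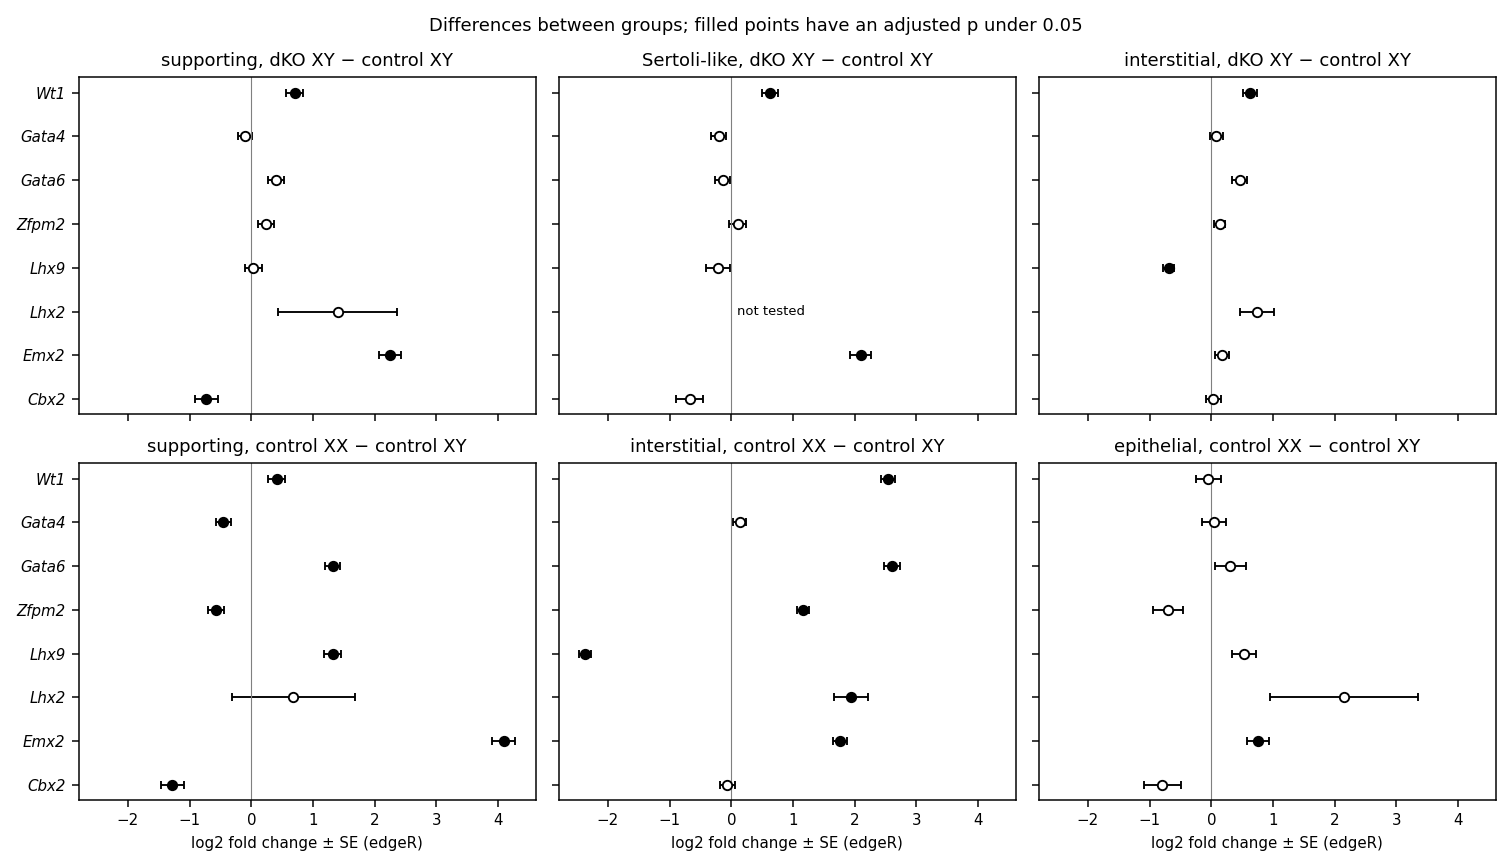
Log2 differences of the 8 genes with standard errors as bars in 6 of the comparisons, filled where the adjusted p was under 0.05. *Emx2* lies farthest to the right in supporting and Sertoli-like cells of dKO XY, and *Lhx9* lies below 0 in the interstitial cells of dKO XY and control XX.

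Control XX supporting cells differed from control XY in 7 of the 8 genes. *Wt1*, *Gata6*, *Lhx9* and *Emx2* were higher and *Gata4*, *Zfpm2* and *Cbx2* lower, 4 and 3 genes against a background of 25.2% of genes called higher and 23.7% called lower. *Emx2* differed most, by a log2 difference of 4.09 ± 0.18 (adjusted p = 2.10e-07), a 17.0-fold higher level. *Gata6* was higher by 1.32 ± 0.13 (adjusted p = 2.26e-05) and *Lhx9*, at 177 and 173 CPM in control XX, by 1.32 ± 0.14 (adjusted p = 4.16e-05), and neither gene's XX values overlapped with its XY values. The *Lhx9* difference ran from 1.16 to 2.15 under the alternatives. Its pooled control XY level joins Sertoli-like cells, at 16.1 and 12.2 CPM when separated below, with other supporting cells. *Zfpm2*, at 42.6 and 43.0 CPM, was lower by −0.57 ± 0.13 (adjusted p = 0.00549), and *Gata4*, at 126 CPM in both libraries, by −0.45 ± 0.12 (adjusted p = 0.00975). *Cbx2* was lower by −1.28 ± 0.19 (adjusted p = 3.48e-04). *Wt1* was higher by 0.41 ± 0.14 (adjusted p = 0.0318), a call lost under 5 of 15 alternatives, among them without control XY replicate 1 (0.29, adjusted p = 0.216) or control XX replicate 1 (0.29, adjusted p = 0.195). Without control XY replicate 2, *Zfpm2* (−0.41, adjusted p = 0.0742) and *Gata4* (−0.38, adjusted p = 0.0837) were not called either, nor was *Gata4* without control XX replicate 2 (−0.43, adjusted p = 0.0526).

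Set directly against control XX, dKO XY supporting cells were higher in 3 members and lower in 3, beside 21.2% and 19.6% of all genes. *Gata6* (−0.92), *Lhx9* (−1.29) and *Emx2* (−1.84) were lower on the log2 scale, and *Zfpm2* (0.80), *Cbx2* (0.55) and *Gata4* (0.35) higher, with adjusted p of 0.0341 or less in each. The *Gata4* call was lost with library totals in place of the trimmed mean of M values (TMM) scaling, which left 2 members higher, and when any of the 4 libraries compared was left out (log2 differences of 0.30 to 0.40, adjusted p of 0.0759 to 0.171), and the *Cbx2* call was lost without dKO XY replicate 2 (0.35, adjusted p = 0.224) or either control XX library (0.62, adjusted p = 0.0724, and 0.48, adjusted p = 0.135). These comparisons share the dKO XY and control libraries with those above. *Wt1* was not called, at a log2 difference of 0.30 ± 0.14 (adjusted p = 0.112). The dKO XY supporting cells thus lay between both controls for *Gata6*, *Emx2* and *Cbx2*, and above both for *Wt1* and *Zfpm2*. *Gata4* and *Lhx9* overlapped with control XY.

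Supporting cells without a marked level of the interstitial gene *Tcf21* or the germ cell gene *Sycp3* were clustered again. Most control XY cells fell in Sertoli-like subclusters (190 and 407 cells), most control XX cells in granulosa-like ones (2697 and 895 cells), and dKO XY cells on both sides. Of the dKO XY cells, 678 and 423 were Sertoli-like and 501 and 468 were not, and the latter are called feminized. Summed over 8 granulosa markers, feminized cells held 902 and 814 CPM, against 26.4 and 27.2 CPM in control XY Sertoli-like, 159.6 and 196 CPM in dKO XY Sertoli-like and 2505 and 2347 CPM in granulosa-like cells. Most feminized cells sat in 1 subcluster led by *Myl1*, *Cck* and *Pnmt*, which also held 11 and 26 control XY and 23 and 10 control XX cells that were put in no class, and none of its 10 leading genes was in the Sertoli or granulosa marker list. The 2 dKO XY classes come from the same libraries and from clustering of the same cells, so levels between them are a description.

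**Figure D3:**
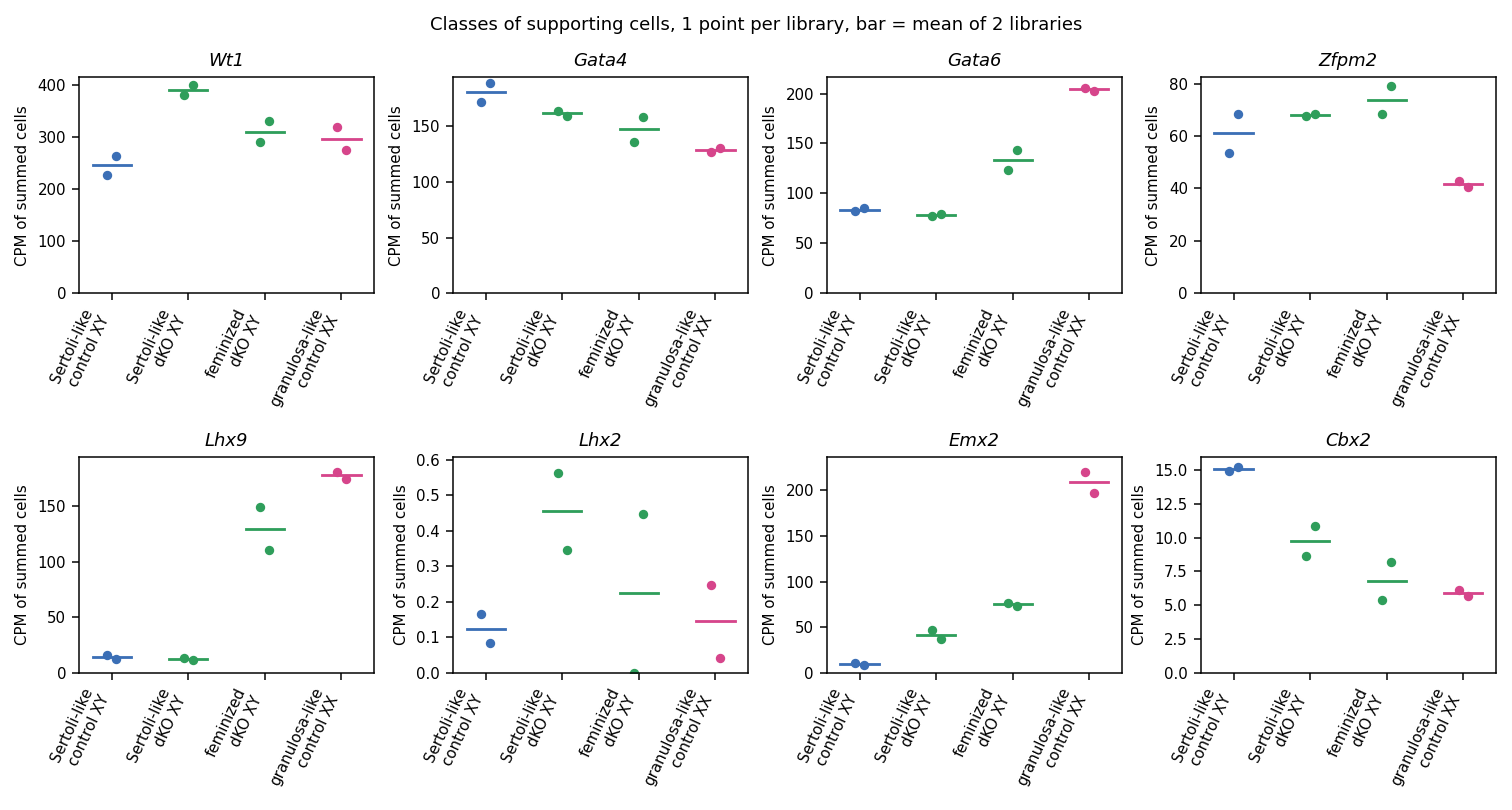
Level of each gene (CPM of the summed cells, linear axis from 0) in Sertoli-like cells of control XY and dKO XY, feminized dKO XY cells and granulosa-like control XX cells, 1 point per library and a line at the mean of 2 libraries. *Lhx9* is at 11.5 to 16.1 CPM in Sertoli-like cells of either genotype and at 149 and 111 CPM in feminized cells.

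*Lhx9* split the dKO XY supporting cells. It measured 16.1 and 12.2 CPM in control XY Sertoli-like cells, 13.2 and 11.5 CPM in dKO XY Sertoli-like cells, 149 and 111 CPM in feminized cells and 181 and 174 CPM in granulosa-like cells. The Sertoli-like values overlapped between the genotypes, and both feminized values were higher than all of them and below both XX values. *Lhx9* was thus low in Sertoli-like cells whether or not *Amh* and *Inhbb* were present (log2 difference −0.22 ± 0.19, adjusted p = 0.538), and the feminized cells were not called against granulosa-like cells (−0.32 ± 0.16, adjusted p = 0.171), but were called without dKO XY replicate 1 (−0.55, adjusted p = 0.0403). Immune cells of the XY libraries held more *Lhx9*, 33.2 to 54.8 CPM, than these Sertoli-like cells. Without the cells with the highest doublet scores, the Sertoli-like mean of control XY was 7.16 CPM (14.2 CPM with them), beside the lower immune mean of dKO XY given above. Before cells with *Tcf21* or *Sycp3* were left out and the rest clustered again, the Sertoli cluster held 67.4 and 58.5 CPM of *Lhx9* in control XY against 22.7 and 20.7 CPM in dKO XY. The 9 interstitial markers summed to 206 and 303 CPM in control XY and 256 and 237 CPM in dKO XY Sertoli-like cells. They summed to 706 and 683 CPM in feminized and 435 and 445 CPM in granulosa-like cells, and their part in the *Lhx9* values was not tested.

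*Emx2*, by contrast, was already higher in Sertoli-like cells. The values were 10.3 and 8.84 CPM in control XY Sertoli-like, 46.9 and 36.4 CPM in dKO XY Sertoli-like, 76.6 and 73.2 CPM in feminized and 220.1 and 198 CPM in granulosa-like cells. The 4 classes did not overlap. Between the Sertoli-like cells the log2 difference was 2.10 ± 0.16 (adjusted p = 2.16e-05), and it kept its sign and call under all 15 alternatives (1.92 to 2.24). The granulosa marker sums given above were also higher in dKO XY Sertoli-like cells, and their part in this difference was not tested. The feminized cells were below granulosa-like cells by −1.34 ± 0.14 (adjusted p = 5.63e-05). Thinned to 5000 UMIs a cell, 2.11% and 4.67% of control XY Sertoli-like cells had an *Emx2* UMI, against 21.1% and 15.1% in dKO XY, 30.7% and 29.9% of feminized and 64.2% and 60.8% of granulosa-like cells. Without thinning, these shares were 22.1% and 18.9%, 55.0% and 56.7%, 64.3% and 73.1%, and 95.7% and 92.8%. Immune cells of dKO XY had a thinned share of 3.28% and 3.92%, well under that of the Sertoli-like cells of the same libraries.

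*Wt1* also rose within the Sertoli-like cells, from 228 and 263 CPM in control XY to 382 and 401 CPM in dKO XY (log2 difference 0.63 ± 0.13, adjusted p = 0.00944). Both dKO XY values were above both controls. The call was lost without control XY replicate 1 (0.54, adjusted p = 0.0714) or dKO XY replicate 2 (0.56, adjusted p = 0.0654). Feminized cells, at 290.0 and 330.5 CPM, did not differ from granulosa-like cells, at 319 and 275 CPM, beyond the spread between libraries (adjusted p = 0.297). After thinning, 62.6% and 70.5% of Sertoli-like cells had a *Wt1* UMI in control XY, against 86.6% and 84.6% in dKO XY. In Sertoli-like cells the 10 Sertoli markers summed to 6401 and 5905 CPM in control XY against 9093 and 7205 CPM in dKO XY. The 5 supporting lineage markers summed to 1998 and 2040 against 2364 and 2374 CPM. The part of these sums, and of the immune *Wt1* values given above, in the *Wt1* difference was not tested. In all, 2 of 7 members tested were called higher and none lower between the Sertoli-like cells, where 8.33% of all genes were called higher and 5.4% lower, and the largest shift of a member that was not called was that of *Cbx2*, from 14.9 and 15.2 to 8.64 and 10.9 CPM (−0.67 ± 0.22, adjusted p = 0.0651), which was called without dKO XY replicate 2 (−0.88, adjusted p = 0.0198), without a filter on low counts (adjusted p = 0.0178), with only the groups compared (adjusted p = 0.0411) and without the cells with the highest doublet scores (adjusted p = 0.0446).

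*Gata6* and *Zfpm2* separated feminized from granulosa-like cells. *Gata6* stood at 82.6 and 85.0 CPM in control XY Sertoli-like, 77.6 and 79.3 CPM in dKO XY Sertoli-like, 123 and 144 CPM in feminized and 206 and 203 CPM in granulosa-like cells. The feminized cells lay between the other classes, below granulosa-like cells by −0.48 ± 0.11 (adjusted p = 0.0102), a call lost without dKO XY replicate 1 (−0.37, adjusted p = 0.141). *Zfpm2* was at 53.6 and 68.6, 67.7 and 68.3, 68.6 and 79.3, and 42.7 and 40.5 CPM in the same classes. It was higher in feminized than in granulosa-like cells by 0.97 ± 0.14 (adjusted p = 4.32e-04), and the control XY Sertoli-like values overlapped with both dKO XY classes. *Gata4* ran from 172 and 189 CPM in control XY Sertoli-like to 127 and 131 CPM in granulosa-like cells, with feminized cells at 136 and 158 CPM (0.33 ± 0.12 against granulosa-like cells, adjusted p = 0.0558). DESeq2 (0.33, adjusted p = 0.0473) and the fit without the cells with the highest doublet scores (0.34, adjusted p = 0.0469) called it. Of 7 members tested, 1 was higher and 2 were lower in feminized than in granulosa-like cells, beside 16% and 11.7% of all genes. Of all genes called there, 57.8% were higher in feminized cells, and 41.1% with library totals in place of TMM scaling.

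In interstitial cells, *Wt1* rose and *Lhx9* fell in dKO XY relative to control XY, 1 member in each direction against 3.82% of all genes called higher and 2.56% lower. These sums join several clusters, whose shares differed. Cluster 0 held 63.9% and 62.6% of the cells in control XY against 49.2% and 42.1% in dKO XY. Cluster 2 held 5.17% and 3.75% against 14.0% and 11.1%. The part of this makeup in both differences was not tested. *Lhx9* stood at 376 and 345 CPM in control XY, 220.2 and 228 CPM in dKO XY and 68.3 and 65.8 CPM in control XX. The 3 groups did not overlap, and dKO XY stood between the controls. The log2 difference of dKO XY from control XY was −0.69 ± 0.09 (adjusted p = 0.00723), a 1.61-fold lower level. It was not called without control XY replicate 1 (−0.62, adjusted p = 0.0862), although the difference stayed between −0.75 and −0.62 under all alternatives. In the same sums the 9 interstitial markers were at 5973 and 5718 CPM in control XY against 4334 and 4402 CPM in dKO XY, and the 5 supporting lineage markers at 62.4 and 87.2 against 201 and 296 CPM. Their part in the *Lhx9* difference was not tested. The thinned share of cells with an *Lhx9* UMI ran to 76.0% and 72.5% in control XY, to 58.8% and 59.3% in dKO XY and to 23.9% and 23.2% in control XX, and unthinned it was 95.4% and 93.4%, 86.9% and 89.4%, and 55.2% and 49.2%.

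The lower *Lhx9* level was present within the interstitial clusters. In the cluster with most XY interstitial cells (cluster 0), *Lhx9* measured 421 and 386 CPM in control XY against 251 and 254 CPM in dKO XY. In cluster 1, which was led by cycling genes, it was at 355 and 327 against 228 and 240.3 CPM. Both clusters showed the same order without overlap. Cluster 2 held nearly all XX interstitial cells and few XY cells, 270 and 234 cells in control XY against 657 and 316 in dKO XY. There *Lhx9* measured 116 and 79.9 CPM in control XY, 104 and 87.9 CPM in dKO XY and 68.1 and 65.5 CPM in control XX. In this cluster the XY groups overlapped, and both were above control XX.

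**Figure D4:**
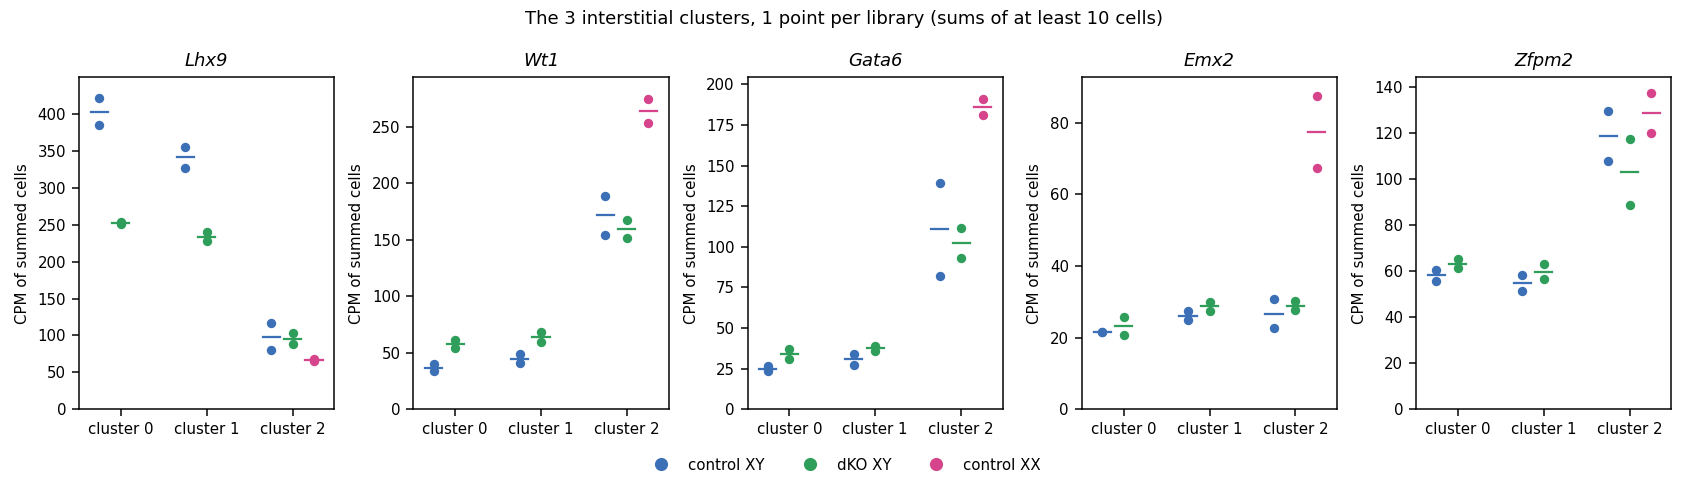
Level of *Lhx9*, *Wt1*, *Gata6*, *Emx2* and *Zfpm2* (CPM of the summed cells, linear axis from 0) in interstitial clusters 0, 1 and 2, 1 point per library and a short line at the group mean, coloured by group. *Lhx9* is lower in dKO XY than in control XY in clusters 0 and 1, and control XX has enough cells for a sum in cluster 2 alone.

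*Wt1* measured 43.6 and 51.1 CPM in control XY interstitial cells, 77.2 and 69.4 CPM in dKO XY and 275 and 253 CPM in control XX. The groups did not overlap. The log2 difference of dKO XY from control XY was 0.63 ± 0.11 (adjusted p = 0.0188), and was not called without control XY replicate 1 (0.53, adjusted p = 0.184), control XY replicate 2 (0.75, adjusted p = 0.0530) or dKO XY replicate 1 (0.53, adjusted p = 0.0780). Markers of another type moved with it. The 5 supporting lineage markers summed to 62.4 and 87.2 CPM in the control XY and 201 and 296 CPM in the dKO XY interstitial cells, whereas the sums of the 10 Sertoli markers overlapped, at 58.9 and 115 against 114 and 126 CPM, with no marker of either list at 0. The 8 granulosa markers summed to 26.6 and 29.5 against 58.1 and 60.2 CPM and the 7 epithelial markers to 0.997 and 1.43 against 4.50 and 4.99 CPM, both without overlap. Immune *Wt1* was at 3.94 and 9.44 against 44.0 and 34.3 CPM. Their part in the interstitial *Wt1* difference was not tested. In cluster 2, *Wt1* measured 154 and 189 CPM in control XY against 152 and 167 CPM in dKO XY, values that overlapped. This cluster held 5.17% and 3.75% of control XY interstitial cells but 14.0% and 11.1% of those of dKO XY. The part of that shift in the pooled *Wt1* difference was not tested. Most XY interstitial cells lay in clusters 0 and 1. Cluster 0 held 63.9% and 62.6% of the control XY cells and 49.2% and 42.1% of the dKO XY cells. For cluster 1 the shares were 30.9% and 33.6%, and 36.8% and 46.8%. Their *Wt1* levels are in the plot of levels by interstitial cluster, and the overlap in cluster 2 does not speak for them. *Gata6*, at 28.5 and 35.3 against 45.7 and 42.4 CPM, was higher in both dKO XY libraries but missed the threshold (0.46 ± 0.12, adjusted p = 0.0658), and DESeq2 called it (adjusted p = 0.00840). By edgeR, *Gata4* (0.08 ± 0.10, adjusted p = 0.725), *Zfpm2* (0.14 ± 0.09, adjusted p = 0.483) and *Lhx2* (0.74 ± 0.28, adjusted p = 0.183) were not called.

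Testis and ovary interstitium differed in 6 members. *Wt1*, *Gata6*, *Zfpm2*, *Lhx2* and *Emx2* were higher and *Lhx9* was lower in control XX, 5 and 1 of 8 against 12.1% and 12.8% of all genes. The 5 supporting lineage markers summed to 62.4 and 87.2 CPM in control XY against 408 and 231 CPM in control XX. For the 8 granulosa markers the sums were 26.6 and 29.5 against 153 and 87.6 CPM. The part of these markers' cells in the differences was not tested. *Gata6*, at 191 and 181 CPM in control XX, was higher than in control XY by a log2 difference of 2.61 ± 0.13 (adjusted p = 7.74e-06), *Wt1* by 2.54 ± 0.12 (adjusted p = 6.71e-06) and *Emx2*, at 87.5 and 67.4 against 24.1 and 23.4 CPM, by 1.76 ± 0.12 (adjusted p = 3.98e-05). *Zfpm2* was at 137 and 120.0 CPM in control XX against 57.1 and 62.9 CPM (1.16 ± 0.10, adjusted p = 1.01e-04), the opposite direction to its difference in supporting cells. *Lhx9* was lower by −2.36 ± 0.10 (adjusted p = 3.71e-06), again opposite to supporting cells. *Lhx2* was called (1.94 ± 0.28, adjusted p = 0.00168) on 28 and 30 UMIs in control XY and 33 and 52 UMIs in control XX. That is 0.227 and 0.230 CPM against 0.914 and 0.782 CPM, beside immune levels of 0.281 and 0 CPM (1 and 0 UMIs) against 1.45 and 0 CPM (1 and 0 UMIs), so the interstitial levels lay within the immune range of the same group. Germ cells, where *Lhx2* was highest, made up 0.220% and 0.0817% of the control XY cells, against 4.84% and 4.75% in control XX, and the part of their RNA in this call was not tested. *Gata4*, at 83.3 and 91.6 against 101 and 83.4 CPM, and *Cbx2* overlapped between the sexes.

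Cluster 2 held enough cells of both sexes for a sum. XY cells of cluster 2 held *Wt1* at 154 and 189 CPM and *Gata6* at 82.1 and 139.6 CPM in control XY, against 275 and 253 CPM and 191 and 181 CPM in control XX. *Emx2* was at 22.7 and 30.6 CPM in the control XY cells of this cluster, overlapping with 27.4 and 24.9 CPM in cluster 1, and at 87.3 and 67.5 CPM in control XX. *Gata4* was lower in these XY cells, at 27.7 and 50.1 CPM in control XY against 29.2 and 23.9 CPM in dKO XY, than in the XX cells, at 101 and 83.4 CPM. Within cluster 2, XX cells were therefore above control XY cells for all 4 genes. These within-cluster values carry no test.

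The effect of dKO XY itself differed between supporting and interstitial cells for 3 members. With the library as a block, the difference of the 2 effects was 2.05 ± 0.13 for *Emx2* (adjusted p = 1.71e-05), 0.69 ± 0.10 for *Lhx9* (adjusted p = 0.00103) and −0.82 ± 0.13 for *Cbx2* (adjusted p = 0.00258), 2 genes higher and 1 lower beside 8.51% and 11% of all genes. *Emx2* rose in supporting cells and in interstitial cells was at 24.1 and 23.4 against 28.2 and 25.4 CPM. *Lhx9* was called lower in interstitial and not in supporting cells. Its pooled supporting value joins the Sertoli cluster, where it was lower in dKO XY before cells with *Tcf21* or *Sycp3* were left out, with the higher feminized cells, and the control XY supporting mean moved from 67.7 to 36.9 CPM with the filter of more than 1500 genes. With that filter its difference of the effects was 1.51, and 1.12 without the cells with the highest doublet scores. *Cbx2* was called lower in supporting cells, with interstitial values of 8.91 and 8.31 against 8.03 and 9.72 CPM that overlapped. For *Wt1*, which was called higher in both types, the difference of the effects was 0.05 ± 0.12 (adjusted p = 0.838). All 3 called differences kept their call under the 14 alternatives that could be fitted.

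Leydig cells, the androgen-producing cells, came from the XY libraries alone. Both of the members called rose in dKO XY, 2 of 7 tested, with 5.17% of all genes called higher and 2.9% lower. *Wt1* measured 4.86 and 8.28 CPM in control XY against 21.7 and 23.1 CPM in dKO XY (log2 difference 1.73 ± 0.22, adjusted p = 0.00525, 3.32-fold). *Zfpm2* was at 13.1 and 15.6 against 21.4 and 27.1 CPM (0.73 ± 0.14, adjusted p = 0.0208). Neither gene overlapped between the groups. The *Wt1* level of Leydig cells was below that of immune cells in both dKO XY libraries. In Leydig cells the 10 Sertoli markers summed to 1265 and 1390 CPM in control XY against 1305 and 1194 CPM in dKO XY, and the 5 supporting lineage markers to 2262 and 2301 against 2403 and 2257 CPM, so both sums overlapped. The Sertoli markers summed to 58.9 and 115 CPM in control XY interstitial cells, and the supporting lineage markers to 1998 and 2040 CPM in control XY Sertoli-like cells. Both lists were thus high in Leydig cells, and their overlap does not measure RNA from supporting cells. Other sums separated without overlap, with the 7 epithelial markers at 6.01 and 8.39 against 9.84 and 14.7 CPM, the 9 interstitial markers at 1452 and 1384 against 1208 and 1221 CPM and the 5 Leydig markers at 29702 and 28238 against 20484 and 20205 CPM. The part of RNA from other cells in the *Wt1* difference was not tested. For *Zfpm2*, immune cells held 7.32 and 7.18 CPM in control XY against 10.9 and 11.1 CPM in dKO XY, lower than Leydig cells in each library, and the dKO XY immune mean was 3.85 CPM without the cells with the highest doublet scores. *Gata6*, at 130.0 and 148 against 116 and 146 CPM, *Gata4*, at 80.6 and 77.3 against 84.8 and 89.7 CPM, and *Lhx9*, at 44.7 and 45.3 against 49.6 and 42.0 CPM, did not pass the test. Neither did *Cbx2*, at 2.44 to 2.47 against 3.09 to 3.79 CPM (0.46 ± 0.19, adjusted p = 0.198), or *Emx2* (0.41 ± 0.18, adjusted p = 0.217). *Lhx2* was not tested.

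No member was called between the epithelial cells of dKO XY and control XY by edgeR, where 3.4% of all genes were called higher and 3.9% lower. At an unadjusted p under 0.05, *Lhx9*, *Lhx2* and *Zfpm2* passed. *Lhx9* stood at 245 and 239 CPM in control XY, 402 and 367 CPM in dKO XY and 379.6 and 289 CPM in control XX (0.67 ± 0.19, adjusted p = 0.0628), and DESeq2 called it (0.67, adjusted p = 0.0340). *Zfpm2* was at 81.0 and 106, 48.3 and 60.8, and 44.4 and 66.8 CPM (−0.79 ± 0.24, adjusted p = 0.0794). Without either control XX library, *Lhx9* and *Zfpm2* were called here, with adjusted p of 0.0222 to 0.0371. In both genes the control XY values lay outside those of the other groups. The control XY sums rest on 32 and 51 cells, and 9 interstitial markers summed to 4404 and 4534 CPM there, against 1370 to 2759 CPM in the other 4 libraries. The part of interstitial RNA in these values was not tested. Between the sexes, *Emx2* was called higher in control XX (0.76 ± 0.18, adjusted p = 0.0411), 1 of 8 higher and none lower against 2.35% and 2.13% of all genes, a call lost under 8 of 15 alternatives, with adjusted p of 0.0504 to 0.298 when any library but control XX replicate 2 was left out. The 5 supporting lineage markers summed to 67.8 and 135.5 CPM in the control XY epithelial cells, 899 and 954 CPM in dKO XY and 1067 and 477 CPM in control XX, and the 8 granulosa markers to 319 and 277, 673 and 559, and 775 and 394 CPM. Both sums were lower in control XY than in the other groups, and their part in the *Emx2*, *Lhx9* and *Zfpm2* values was not tested.

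**Figure D5:**
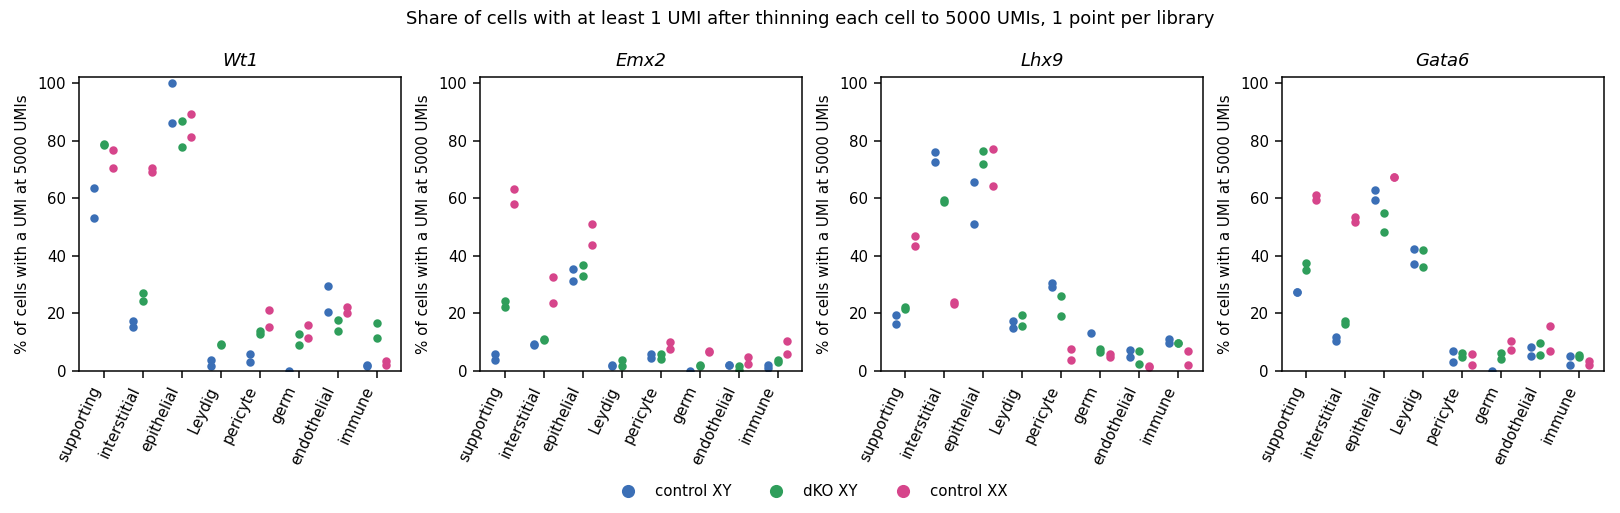
Share of cells with at least 1 UMI of *Wt1*, *Emx2*, *Lhx9* or *Gata6* after thinning every cell to 5000 UMIs (percent, axis from 0 to 100), by cell type, 1 point per library, coloured by group. The *Lhx9* share of interstitial cells falls in 3 separate pairs of libraries, control XY (76.0% and 72.5%) above dKO XY (58.8% and 59.3%) above control XX (23.9% and 23.2%).

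The relatives and partners of the members followed their own course, and were described from lists chosen with earlier results of these data known. Among 13 GATA, FOG, LIM homeobox and Emx paralogs, 6 could be tested in supporting cells, and 2 were higher (*Lhx1*, log2 difference 2.81, and *Gata2*, 2.35) and 1 lower (*Zfpm1*, −1.74 ± 0.14, adjusted p = 5.44e-05) in dKO XY than in control XY, beside 9.85% and 6.81% of all genes. *Zfpm1*, which encodes FOG1, stood at 84.0 and 93.7 CPM in control XY, 28.8 and 24.2 CPM in dKO XY and 33.6 and 29.5 CPM in control XX. Both dKO XY values lay below the XX values, whereas its paralog *Zfpm2* was at 68.6 and 74.5 CPM in dKO XY, above both XX values. *Lhx1* reached 1.71 and 0.192 CPM in the XY controls and 3.33 and 7.43 CPM in dKO XY, and *Gata2* was at 0.122 and 0.384 against 1.28 and 1.67 CPM, both near the lower limit.

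LIM homeobox proteins work through LDB adaptors and are opposed by LMO proteins, which compete for the same adaptors. Of 9 such cofactors, all tested in supporting cells, *Lmo3* (4.43) and *Lmo1* (2.87 ± 0.32, adjusted p = 3.33e-04) were higher and *Ldb2* (−1.34 ± 0.13, adjusted p = 1.56e-04) and *Ssbp2* (−0.62) lower in dKO XY, beside 9.85% and 6.81% of all genes, with a list median of 0.01. *Lmo1* measured 0.974 and 0.897 CPM in control XY, 5.38 and 8.13 CPM in dKO XY and 10.6 and 10.7 CPM in control XX, and dKO XY stood between the controls. *Ldb2* was at 29.0 and 27.5, 11.4 and 10.8, and 37.3 and 35.0 CPM, lower in dKO XY than in either control. Interstitial cells showed *Lmo1* higher (1.32) and *Ssbp2* lower (−0.56) in dKO XY, 1 of 9 in each direction beside 3.82% and 2.56% of all genes.

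The PRC1 list, 11 subunits beside CBX2, had no called member in supporting cells between dKO XY and control XY by edgeR, with a median log2 difference of −0.14 and 1 gene, *Cbx7* (1.49 ± 0.54), at an unadjusted p under 0.05. Against control XY, control XX supporting cells had 4 subunits higher, *Cbx7* (1.82), *Cbx8* (0.91), *Cbx6* (0.77) and *Ring1* (0.58), and none lower, beside 25.2% and 23.7% of all genes. *Cbx2* itself was lower in that comparison, as given above. Of 12 further genes of gonad formation, *Gadd45g*, which acts upstream of *Sry* through MAP kinase signalling, was higher (2.04 ± 0.18, adjusted p = 9.06e-05) and *Osr1* lower (−1.58) in dKO XY supporting cells, where 9.85% and 6.81% of all genes were called. *Gadd45g* stood at 31.2 and 34.7 CPM in control XY, 152 and 118.5 CPM in dKO XY and 117 and 158 CPM in control XX, and the dKO XY and XX values overlapped.

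Genes known to be regulated by the members were mixed. Of 10 such targets, 8 were tested in supporting cells, and 2 were higher and 3 lower in dKO XY than in control XY, beside 9.85% and 6.81% of all genes. *Lef1* (2.37) and *Wnt4* (1.46 ± 0.13, adjusted p = 1.30e-04) rose. *Wnt4*, an ovarian signal, measured 51.7 and 58.5 CPM in control XY, 140.0 and 161 CPM in dKO XY, and 558 and 541 CPM in control XX. *Amh*, itself deleted, *Dhh* (−0.70 ± 0.16, adjusted p = 0.0140) and *Dmrt1* (−0.51 ± 0.15, adjusted p = 0.0397) were lower. *Sox9*, at 356 and 346 CPM in control XY against 341.5 and 284 CPM in dKO XY, did not pass the test. Within Sertoli-like cells, *Lef1* (2.64) and *Wnt4* (2.04) were higher and *Amh* was the only target called lower, beside 8.33% and 5.4% of all genes.

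The nearest patterns to each member were sought over 45 sums of a library and cell type, among 12504 genes, by the Pearson correlation of log2(CPM + 1). The points share libraries, so these values are descriptions. *Wt1* was nearest to its antisense transcript *Wt1os* (r = 0.96), followed by *Pdgfc* (0.88) and *Wnk4* (0.87), and *Emx2* to its antisense transcript *Emx2os* (0.97), followed by *Sulf1* (0.94) and *Gabra4* (0.93). Whether reads of these pairs were told apart depends on strand-aware counting. *Lhx9* was nearest to *Hs3st3a1* (0.92), *Gata4* to *Efs* (0.94), *Gata6* to 1010001N08Rik (0.92) and *Zfpm2* to *Angptl2* (0.94). The lowest top values were those of *Lhx2*, with *Zfp936* (0.89), and *Cbx2*, with *Fnbp1l* (0.87). No member was among the 3 nearest genes of another.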

How the data were processed

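Single cell mRNA libraries were made from gonads of mouse embryos at E15.5, with 2 biological replicates in each of 3 groups. The values the authors deposited are unnormalized UMI counts for each gene in each barcode, and the submitters' processing notes name Cell Ranger, a correction for swapped barcodes, the mm10 genome and Seurat 4.0. The annotation release was not given in the sources used here. From these counts, barcodes were kept as cells if they held over 2500 but under 9000 genes, under 25% mitochondrial and under 20% *Hbb* UMIs. Cells were clustered with Seurat 5.3.0 on 2975 variable genes, 20 dimensions and resolution 0.21, after 25 member and list genes had been left out of 3000 variable genes. Supporting cells with a log-normalized *Sycp3* or *Tcf21* value of at least 1 were left out before they were clustered again. Doublets were kept, because the caller in scanpy 1.11.5 marked 4 to 249 cells in a library. These marked cells were not evenly spread. Each dKO XY library had more of them (replicate 1: 249, replicate 2: 184) than any control library. The largest number in a control library was 86, found in control XX replicate 1. As an alternative, the 8% of cells that scored highest were removed.

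For each library and cell type of at least 10 cells, UMIs were added up and tested with edgeR 4.0.16 (glmQLFit and glmQLFTest, filterByExpr, TMM, Benjamini-Hochberg over all genes tested) in R 4.3.3. All groups entered a fit together, except Leydig cells (XY libraries). The supporting against interstitial difference had the library as a block. The SE is the log2 difference divided by the square root of F. The tests were tried on simulated counts first. Shares of cells with a UMI were computed after thinning to 5000 UMIs, and 0 of 39350 cells were shallower.

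The members and lists were chosen with earlier results of these data known. All 8 members entered every comparison, but *Lhx2* could not be tested in Leydig cells or the supporting classes. Member differences that were not called are not all given. Of each list, the called genes with the largest log2 differences are given, up to 4, with a few further list genes for their values. *Cbx7*, *Sox9* and *Tcf21* are named outside that rule. P-values rest on a spread estimated over all groups of a fit and drawn together across genes, with 2 libraries a group. In the fit of the supporting classes, the 2 dKO XY classes of a library entered as separate sums without a block. Its p-values do not take account of that sharing. DESeq2 1.42.0, other scalings, filters, clusterings and left-out libraries served as alternatives.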

Additional observations from a re-analysis of the deposited data

Results flagged for a closer look

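The dKO XY effect differed between supporting and interstitial cells, by the edgeR quasi-likelihood test of the difference itself, for *Emx2* (2.05 on the log2 scale, supporting minus interstitial), *Lhx9* (0.69) and *Cbx2* (−0.82). *Emx2* was higher in dKO XY supporting cells in 2 of 2 libraries than in either control XY library. In interstitial cells, *Lhx9* was lower in 2 of 2. The *Lhx9* difference was 1.51 with more than 1500 genes per cell, where the mean control XY level in supporting cells moved from 67.7 to 36.9 CPM.

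*Zfpm2* and *Lhx9* moved in opposite directions between control XX and control XY in the 2 cell types, and the difference was not tested. *Zfpm2* differed by −0.57 in supporting and by 1.16 in interstitial cells on the log2 scale, and *Lhx9* by 1.32 in supporting and by −2.36 in interstitial cells. The supporting *Lhx9* difference ran from 1.16 to 2.15 under the alternatives.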

How the results depend on the processing

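Of 35 called member results, 23 kept their direction and call under every alternative run and 12 lost the call under at least 1. Of 50 that were not called, 9 were called under at least 1. No called result reversed. Fits to 2 libraries a group rest on few residual degrees of freedom, and a group left with 1 library was assumed to vary like the others. Low-count members, *Lhx2* above all, are limited by depth.

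The counts of genes called moved by over 1.5 times as follows. Without a filter on low counts, 1743 genes were called in interstitial cells between dKO XY and control XY (1078 with it), 2424 in Leydig cells (1185), 1820 in epithelial cells between dKO XY and control XY (951) and 1301 between control XX and control XY (584). With only the groups compared, 1534 genes were called in epithelial cells between dKO XY and control XY. Leaving out 1 library gave 1097 to 2780 genes in supporting cells between dKO XY and control XY (2655 with all), 946 to 1939 in Sertoli-like cells (2055), 2694 to 4111 between feminized and granulosa-like cells (4154), 277 to 1208 in interstitial cells between dKO XY and control XY and 2552 to 4306 between control XX and control XY (4214), 1018 to 1792 in Leydig cells, 265 to 1506 and 141 to 1143 in epithelial cells for the same pair of contrasts, and 1725 to 3458 for the difference of the effects (3378). The lowest counts came without control XY replicate 2 in supporting, Sertoli-like and epithelial cells, without control XY replicate 1 (277) in interstitial cells and without control XX replicate 2 in feminized cells. The cause was not tested.

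In supporting and interstitial cells, the deviations of same-numbered libraries correlated at −0.21 to 0.10. Other cell types were not examined, so a pairing by replicate number there is not known. With the replicate block, 679 genes were called in interstitial cells between dKO XY and control XY and 2243 in Leydig cells. It left 1 member higher in supporting cells of dKO XY than of control XX (3 without the block), as *Cbx2* and *Gata4* lost their calls. *Wt1* lost its call between the sexes in supporting cells, and *Zfpm2* gained one between the XY genotypes in epithelial cells.

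Among results that were not called, the sign of these log2 differences turned. For *Lhx9* in Leydig cells it was 0.025 with library totals, 0.52 without the cells with the highest doublet scores, 0.10 with more than 1500 genes per cell and 0.11 at resolution 0.5, and in Sertoli-like cells 0.23 without the highest doublet scores. *Wt1* gave −0.13 for the difference of the effects with more than 1500 genes per cell, and *Gata4* −0.019 between the sexes in epithelial cells with library totals. Leaving out 1 library gave ranges that crossed 0. They ran from −0.16 to 0.13 for *Lhx9* and −0.27 to 0.014 for *Gata6* in Leydig cells, −0.13 to 0.20 for *Lhx9* in supporting cells, −0.046 to 0.29 for *Zfpm2* in Sertoli-like cells, −0.026 to 0.60 for *Cbx2* between feminized and granulosa-like cells, −0.087 to 0.16 for *Cbx2* in interstitial cells and −0.40 to 0.012 for *Wt1* in epithelial cells (dKO XY against control XY). Between the sexes they ran from −0.11 to 0.18 for *Gata4* and −0.21 to 0.19 for *Wt1* in epithelial cells and from −0.94 to 1.62 for *Lhx2* in supporting cells. For the difference of the effects they ran from −0.29 to 0.075 for *Gata6*, −0.28 to 1.61 for *Lhx2*, −0.11 to 0.20 for *Wt1* and −0.015 to 0.15 for *Zfpm2*. The cause was not tested.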
